A study of Mus musculus with 4 samples.

Results

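The 43 genes described here are read as marks of the cell division cycle: 19 genes of S phase, 22 genes of G2 and mitosis (G2/M) and the D cyclins Ccnd1 and Ccnd2. They were taken by symbol from the 27998 genes of the count tables. The rule uses no measured value, but the list was drawn up with earlier results of these data known. The S genes are Mcm2, Mcm3, Mcm4, Mcm5, Mcm6, Mcm7, Pcna, Rrm1, Rrm2, Tyms, Tk1, Lig1, Ung, Ccne1, Ccne2, Cdc6, Dscc1, Atad2 and Tcf19. The G2/M genes are Mki67, Top2a, Cdk1, Ccna2, Ccnb1, Ccnb2, Aurka, Aurkb, Birc5, Cenpa, Cenpf, Ube2c, Nusap1, Prc1, Plk1, Tpx2, Cdc20, Pttg1, Cdkn3, Kif2c, Knstrn and Kpna2. All 43 were matched. They held 570641 of the 114408089 unique molecular identifiers (UMIs, which count captured RNA molecules) in the cells kept.

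The tissue was the salivary gland of ICR mouse embryos at embryonic day 12 (E12), a stage of early bud growth. Submandibular and parotid glands, roughly 10 of each kind, were harvested, split into epithelium and mesenchyme with Dispase II, and digested at low temperature with Bacillus licheniformis protease plus Accutase and Accumax before 10x Chromium droplet capture. This gave 4 groups with 1 library each: submandibular epithelium, parotid epithelium, submandibular mesenchyme and parotid mesenchyme. All 4 came from the same strain and stage, with no genotype or treatment stated. With 1 library a group there is no replicate spread and no test between groups. Every interval given is a 95% interval that covers counting error only (exact for shares, levels and ratios, Newcombe's method for differences of shares). A difference between glands or between tissues cannot be told apart from a difference between libraries.

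The division cycle runs through G1, S, G2 and M. D cyclins and their kinases act in G1 to release E2F factors from the retinoblastoma proteins, and E2F then switches on genes for DNA replication: the Mcm2 to Mcm7 helicase, the Pcna clamp, nucleotide enzymes such as Rrm2, Tyms and Tk1, and the E cyclins. Genes of G2 and mitosis, among them Cdk1, the B cyclins, Aurora kinases and the ubiquitin ligase parts Ube2c and Cdc20, are switched on later through MuvB complexes with MYBL2 and FOXM1. In a growing gland, division feeds the buds, while muscle cells leave the cycle as they differentiate.

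The promoters of the members carry letters known for this regulation, and 6 genes whose levels are described further on show how the 2 lists differ. Each sequence is the 120 bases before the RefSeq transcription start, on the GRCm38.p6 build, read 5′ to 3′ along the gene. Capitals mark 3 motifs, each searched on both strands: TTTGAA (the cell cycle homology region bound by MuvB), CCAAT (bound by NF-Y), and an E2F-like site, any of TTTCCCGC, TTTCGCGC, TTTGCCGC or TTTGGCGC. On the opposite strand TTTGAA reads TTCAAA and CCAAT reads ATTGG. Cdc20 lies at chr4:118437344-118437463 (minus strand), Ube2c at chr2:164769809-164769928 (plus), Kpna2 at chr11:106999526-106999645 (minus), Cdk1 at chr10:69352913-69353032 (minus), Rrm2 at chr12:24708134-24708253 (plus) and Mcm6 at chr1:128359706-128359825 (minus).
Cdc20: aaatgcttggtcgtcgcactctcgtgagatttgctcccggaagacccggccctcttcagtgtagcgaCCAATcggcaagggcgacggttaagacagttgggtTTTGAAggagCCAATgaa
Ube2c: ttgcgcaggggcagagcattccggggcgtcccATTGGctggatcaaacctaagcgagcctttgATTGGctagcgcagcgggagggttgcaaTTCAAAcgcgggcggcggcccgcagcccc
Kpna2: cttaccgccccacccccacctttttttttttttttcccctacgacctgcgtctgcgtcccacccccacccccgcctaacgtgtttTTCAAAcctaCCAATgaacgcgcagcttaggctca
Cdk1: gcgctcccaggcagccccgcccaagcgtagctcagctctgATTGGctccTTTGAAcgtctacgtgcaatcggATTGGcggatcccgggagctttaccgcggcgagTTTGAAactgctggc
Rrm2: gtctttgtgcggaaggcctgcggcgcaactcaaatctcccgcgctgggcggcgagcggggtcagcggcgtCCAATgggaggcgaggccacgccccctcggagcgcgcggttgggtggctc
Mcm6: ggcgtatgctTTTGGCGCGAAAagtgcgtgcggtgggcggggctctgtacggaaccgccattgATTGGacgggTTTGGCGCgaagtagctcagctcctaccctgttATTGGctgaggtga

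The 4 G2/M promoters shown each hold TTTGAA beside 1 or 2 CCAAT boxes, and Cdk1 holds TTTGAA at 2 places, 71 and 15 bases before the start. Rrm2 and Mcm6, from the S list, hold CCAAT without TTTGAA in these bases, and Mcm6 has 3 E2F-like matches, 2 of which overlap in opposite directions. RefSeq promoters were matched for 34 of the 43 members, and those of Mcm4, Ccne2, Dscc1, Atad2, Ccna2, Aurkb, Tpx2, Ccnd1 and Ccnd2 were not used here. Over windows of 300 bases (250 before the start and 50 after), TTTGAA was in 75% of 20 G2/M promoters and in 5.56% of 18 S promoters, against 17.9% of all 32851 promoters in the table. CCAAT was in 75% of the G2/M promoters, 55.6% of the S promoters and 37.4% of all. An E2F-like match was in 33.3% of the S promoters (Cdc6, Lig1, Mcm3, Mcm5, Mcm6 and Mcm7), 5% of the G2/M promoters (Cdk1) and 2.26% of all. A match describes the letters and does not show that a factor binds.

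The libraries held 14004908 to 39621166 UMIs, and after a filter on genes and mitochondrial UMIs 14884 of 15351 barcodes were kept, with a median of 9578 UMIs in submandibular epithelium, 6931.5 in parotid epithelium, 5520.5 in submandibular mesenchyme and 5737.0 in parotid mesenchyme. Because a deep cell shows more of every gene, each cell was thinned to 3000 UMIs, and 14396 cells had that many. A cell was called G2/M when at least 8 of its 3000 UMIs (0.25%) came from the 22 G2/M genes, S when it had fewer than 8 but at least 8 from the 19 S genes, and neither otherwise. These calls are cuts on a range of levels, not types of cell. Cell classes were rebuilt by clustering and are called "-like" from marker genes. Epcam, an epithelial adhesion gene, stood at 666 and 485 UMIs per 1000000 UMIs of the class (CPM) in the submandibular and parotid epithelial-like cells and at 14.1 and 2.03 CPM in the mesenchymal-like cells of the same glands. The collagen gene Col3a1 stood at 0.10 and 2.25 CPM in the epithelial-like cells against 824 and 829 CPM in the mesenchymal-like cells. Among the kept barcodes, 115 sequences occurred in more than 1 library.

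Epithelial-like cells of the epithelium libraries had larger shares in both phases than mesenchymal-like cells of the mesenchyme libraries. In submandibular epithelium 39.0% of 3594 epithelial-like cells (interval 37.4 to 40.6%) were called G2/M, and in parotid epithelium 32.0% of 1678 (29.8 to 34.3%). In mesenchyme the G2/M share was 17.6% of 4077 submandibular mesenchymal-like cells (16.5 to 18.8%) and 22.6% of 3796 parotid ones (21.3 to 23.9%). The order of the glands was thus opposite in the 2 tissues: submandibular was higher in epithelium by 7.01 percentage points (4.24 to 9.72) and lower in mesenchyme by 4.94 points (difference -4.94, -6.71 to -3.17). Epithelium exceeded mesenchyme by 21.4 points (19.4 to 23.3) in the submandibular gland and by 9.43 points (6.85 to 12.04) in the parotid gland. These tissues are separate libraries. Within the parotid mesenchyme library, 25.9% of 116 epithelial-like cells were called G2/M (18.2 to 34.8%). That interval overlaps the one of the mesenchymal-like cells there. Their S share was 20.7% (13.7 to 29.2%), against 11.7% (10.7 to 12.7%) in those mesenchymal-like cells.

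The S shares had the same order. They were 27.2% in submandibular epithelium, 21.2% in parotid epithelium, 9.10% in submandibular mesenchyme and 11.7% in parotid mesenchyme, so the gland difference was 6.02 points (3.55 to 8.42) in epithelium and -2.57 points (-3.93 to -1.22) in mesenchyme. Without thinning the G2/M shares were 40.0, 31.8, 18.0 and 22.8% in the same order, close to the thinned ones. The share of cells with no UMI at all from the 22 G2/M genes was 14.5% in submandibular epithelium, 27.9% in parotid epithelium, 33.3% in submandibular mesenchyme and 31.7% in parotid mesenchyme. Cells with 6 to 9 such UMIs, close to the threshold, made up 16.3% of the submandibular and 11.7% of the parotid epithelium but 4.34 and 5.90% of the mesenchyme, so the epithelial shares depend more on where the threshold lies. At a threshold of 0.15% of UMIs the gland difference in epithelium was 13.29 points and the excess of epithelium over mesenchyme 32.6 (submandibular) and 13.96 (parotid) points, and at 0.4% they were 3.378, 12.39 and 6.001 points. All of these kept the direction given above.

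**Figure D1:**
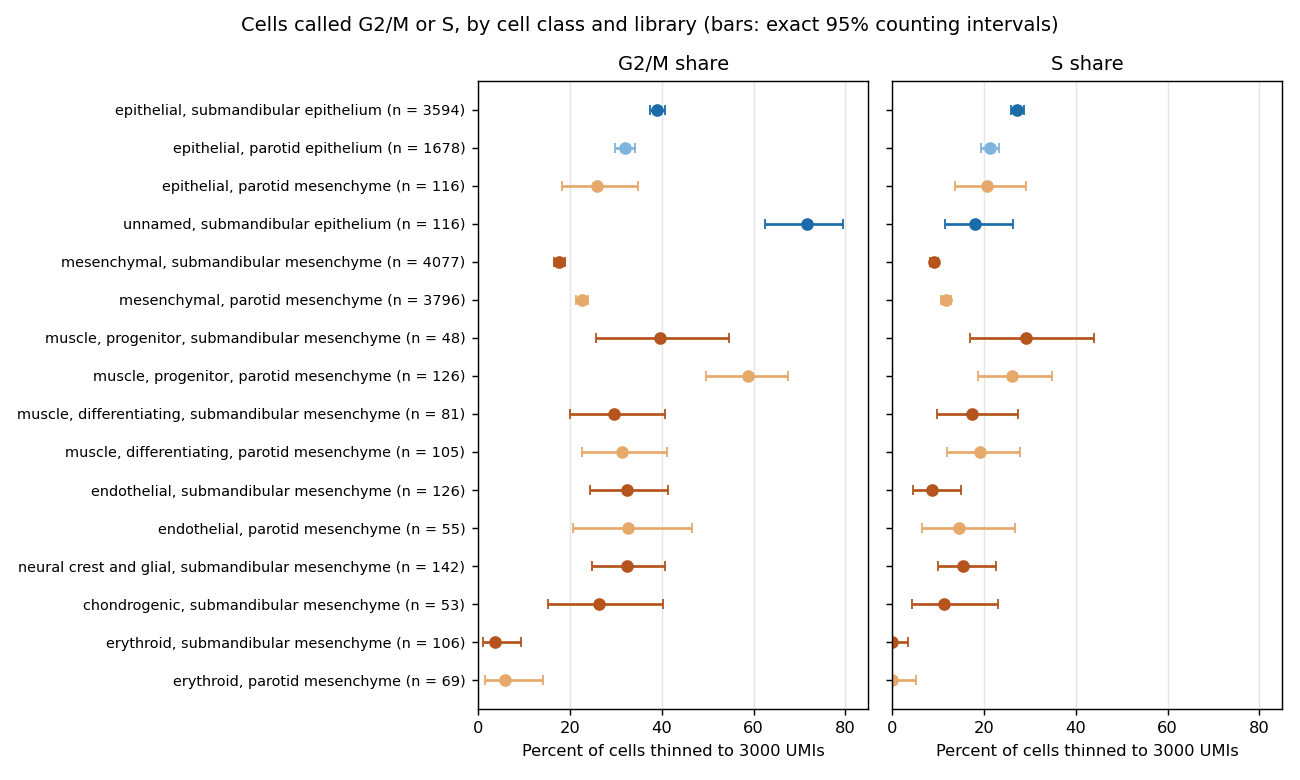
Share of cells (percent, x axis) called G2/M (left) and S (right) for each cell class and library on the y axis, after thinning to 3000 UMIs; bars on the points are exact 95% counting intervals. Epithelial-like cells of the epithelium libraries (39.0 and 32.0% in G2/M) lie above mesenchymal-like cells (17.6 and 22.6%), and erythroid-like cells lie lowest. The 116 epithelial-like cells of the parotid mesenchyme library stand at 25.9% (18.2 to 34.8%).

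Several measures of the cells moved with the phase calls. Cells called G2/M had a median of 11660 UMIs before thinning in submandibular epithelium against 6925 in cells called neither, and in submandibular mesenchyme 6967 against 4975. The median mitochondrial share was lower in G2/M cells than in neither cells of every library, for example 4.61 against 5.07% in submandibular epithelium and 3.80 against 4.27% in parotid mesenchyme. A list of 14 immediate early and heat shock genes that tissue dissociation can induce was highest in the neither cells of all 4 libraries, for example at 19.2 per 10000 UMIs there and 11.01 in G2/M cells of submandibular epithelium. Its summed level was 1228 CPM in submandibular epithelium, 2752 CPM in parotid epithelium, 3413 CPM in submandibular mesenchyme and 3932 CPM in parotid mesenchyme, and all 14 genes were lower in submandibular than in parotid epithelium. Its part in the shares was not tested. Several comparisons moved with the limit on mitochondrial UMIs. With at most 5% allowed, the gland difference in mesenchyme shrank from -4.94 to -0.5955 points (23.7% of 1703 submandibular and 24.3% of 3174 parotid cells), and the excess of parotid epithelium over parotid mesenchyme was 14.23 in place of 9.43 points.

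Erythroid-like cells, which hold few transcripts of either list, show how often the calls occur in such cells. In them 5.80% of 69 parotid and 3.77% of 106 submandibular cells were called G2/M, at medians of 16904 and 17195 UMIs per cell before thinning. None was called S, which allows a share of up to 5.21 and 3.42%. The epithelial and mesenchymal class shares above exceeded these, although single mesenchymal clusters lay lower. The globin gene Hba-a1 alone stood at 266109 CPM in the parotid and 255872 CPM in the submandibular erythroid-like cells, which leaves fewer UMIs for other genes. Whether the G2/M calls among them mark dividing cells was not tested.

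To see how each gene behaves along the cycle, its level was read in cells called G2/M, S or neither from the other genes of its list, with the gene itself left out of the call. All 22 G2/M genes were highest in G2/M cells in all 4 libraries, and 17 of the 19 S genes were highest in S cells in all 4. The genes were listed as marks of these phases, so high counts follow largely from that choice. No share over all genes is given beside them. Ube2c, which loads ubiquitin for the mitotic ligase, stood at 8.64 per 10000 UMIs in G2/M cells, 0.73 in S cells and 0.78 in neither cells of submandibular epithelium, and at 10.1, 1.00 and 0.26 in parotid mesenchyme. Ccnb1, cyclin B1 that turns on Cdk1, stood at 4.0, 0.52 and 0.50 in the first and at 4.29, 0.31 and 0.08 in the second. Top2a and Cdk1, which are already made in S phase, were less sharply divided: Top2a was 2.99 in G2/M and 1.42 in S cells of submandibular epithelium.

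The S genes covered a wider range of behaviour. Ung, which removes uracil from DNA, was 0.16 in G2/M, 1.52 in S and 0.75 in neither cells per 10000 UMIs of submandibular epithelium, and Mcm6 was 0.68, 2.53 and 1.42. Genes of nucleotide synthesis stayed high into G2/M: Tyms was 2.50 in G2/M against 3.15 in S cells, and Rrm1 1.29 against 1.47. In submandibular mesenchyme Rrm1 (1.56 against 1.41) and Tk1 (1.87 against 1.72) were the 2 S genes with the higher level in G2/M cells.

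Genes outside both lists moved with the calls as well. All 39 further mitotic genes were highest in G2/M cells in all 4 libraries. Of 33 further replication genes, 33 were highest in S cells in both epithelia, 32 in submandibular and 31 in parotid mesenchyme. These lists too were picked as cell cycle genes, and their counts have no share over all genes beside them. Ccnd2, which marks no phase in the rule, was nearly level across phases of submandibular epithelium at 6.99 per 10000 UMIs in G2/M, 8.02 in S and 7.22 in neither cells.

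**Figure D2:**
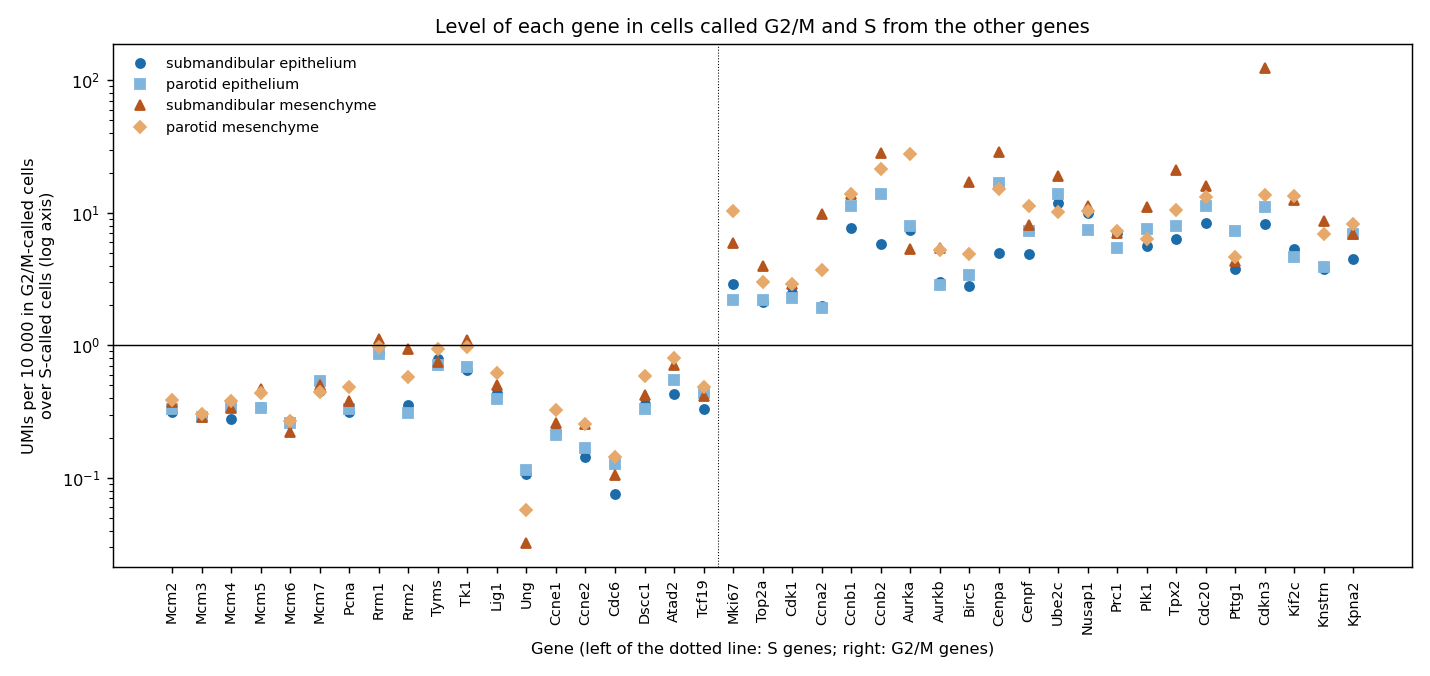
For each S gene (left of the dotted line) and G2/M gene (right) on the x axis, the ratio of its level in cells called G2/M to that in cells called S (log y axis), each gene left out of its own call; symbols stand for the 4 libraries. All G2/M genes lie above 1 and the S genes below it, apart from Rrm1 and Tk1 in submandibular mesenchyme; the highest point, Cdkn3 in submandibular mesenchyme, rests on 1 UMI in S cells.

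Levels of the members were next compared over all UMIs of a class, as CPM. CPM is not corrected for gene length, so ratios are given for the same gene between libraries and genes are not ranked against each other. In submandibular epithelium the E and D cyclins, which drive entry into S phase, stood above parotid epithelium by more than most members. Ccne2 was 54.1 against 22.8 CPM, a ratio of 2.37 (2.1 to 2.69), and Ccne1 was 87.8 against 47.0 CPM, a ratio of 1.87 (1.72 to 2.04). Ccnd1 was 81.2 against 45.7 CPM (1.78, 1.63 to 1.94, and 1.40 in thinned cells) and Ccnd2 731.9 against 479.5 CPM (1.53, 1.49 to 1.57).

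Replication and mitotic genes differed less between the epithelia. Rrm2, the limiting subunit of the enzyme that makes deoxynucleotides, was 444 CPM in submandibular and 321 CPM in parotid epithelium (1.38, 1.34 to 1.43), Tyms 234 against 201 CPM, and Cdc6, which loads the helicase, 16.0 against 10.5 CPM. Among G2/M genes, Top2a was 188 against 145 CPM (1.30, 1.24 to 1.37), Mki67 59.5 against 46.1, Aurkb 61.4 against 49.1, Ube2c 430 against 389, Birc5 249.8 against 238.7 and Cdkn3, a phosphatase, 20.0 against 24.6 CPM. The 19 S genes summed to 2217 against 1836 CPM (1.21, 1.19 to 1.22), with 15 higher and 4 lower in submandibular epithelium. The 22 G2/M genes summed to 3052 against 2892 CPM (1.06, 1.04 to 1.07), with 14 higher and 8 lower. In cells with 1000 genes or more and no more than 5% mitochondrial UMIs this last ratio turned to 0.943, with 6 higher and 16 lower, while the S ratio was 1.18.

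Of the 43 members, 37 reached 50 CPM in at least 1 of the epithelia. Past the fold limits set here, 4 of these (Ccne1, Ccne2, Ccnd1 and Ccnd2) had a submandibular level 1.5-fold or more above the parotid one, beside 5.07% of 3016 genes tested, none was 1.5-fold lower beside 5.7%, and 1 (Ccne2) passed a 2-fold difference beside 4.91%. The median log2 ratio was 0.23 over all S genes and 0.07 over all G2/M genes, and 0.23 and 0.09 over those at 50 CPM, beside 0.04 over all genes tested at that level.

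In mesenchyme most members were lower in the submandibular gland. Kpna2, an importin, was 30.3 CPM in submandibular and 84.6 CPM in parotid mesenchyme, a ratio of 0.36 (0.33 to 0.39). Birc5, survivin of the chromosomal passenger complex, was 147.0 against 234 CPM (0.63, 0.60 to 0.66), Ccna2 62.5 against 98.7 (0.63) and Kif2c, a microtubule-depolymerizing kinesin, 20.3 against 33.0 (0.62). Ube2c was 252 against 332 CPM (0.76) and Pttg1, securin, 224 against 259.7 (0.86). Of the 22 G2/M genes 19 were lower in submandibular mesenchyme and 3 higher, Mki67 (50.2 against 39.6 CPM), Aurka and Top2a.

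The S genes were less uniform. Rrm2 was 168 CPM in submandibular and 284 CPM in parotid mesenchyme (0.59, 0.57 to 0.62), Tyms 126 against 185 (0.68, 0.65 to 0.71), Pcna 95.2 against 171 (0.56, 0.53 to 0.59) and Cdc6 9.50 against 12.3 CPM. Counts of Pcna are uncertain because the gene table also lists a near copy, Pcna-ps2. Ccne1 lay above, at 76.7 against 60.4 CPM. In all 12 S genes were lower and 7 higher. Ccnd1 was 96.8 against 153.7 CPM (0.63, 0.60 to 0.66), and Ccnd2 was level at 261 and 259 CPM (1.01, 0.98 to 1.05).

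The S genes summed to 1450 CPM in submandibular against 1732 CPM in parotid mesenchyme (0.84) and the G2/M genes to 2072 against 2560 CPM (0.81). In cells with 1000 genes or more and no more than 5% mitochondrial UMIs the G2/M ratio was 0.929, with 9 genes higher and 13 lower, and the S ratio 0.877, with 10 higher and 9 lower, so the majority of the S genes turned. At 50 CPM, 32 of the 43 members were measured: 7 were at least 1.5-fold lower beside 8.26% of 3267 genes tested, none was 1.5-fold higher beside 8.75%, and 1 (Kpna2) passed a 2-fold difference beside 7.56%. The median log2 ratio was -0.08 over all S genes and -0.30 over all G2/M genes, and -0.12 and -0.24 over those at 50 CPM, beside -0.02 over all genes tested. Among 33 further replication genes 22 were higher and 11 lower in submandibular mesenchyme, and among 39 further mitotic genes 37 were lower.

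**Figure D3:**
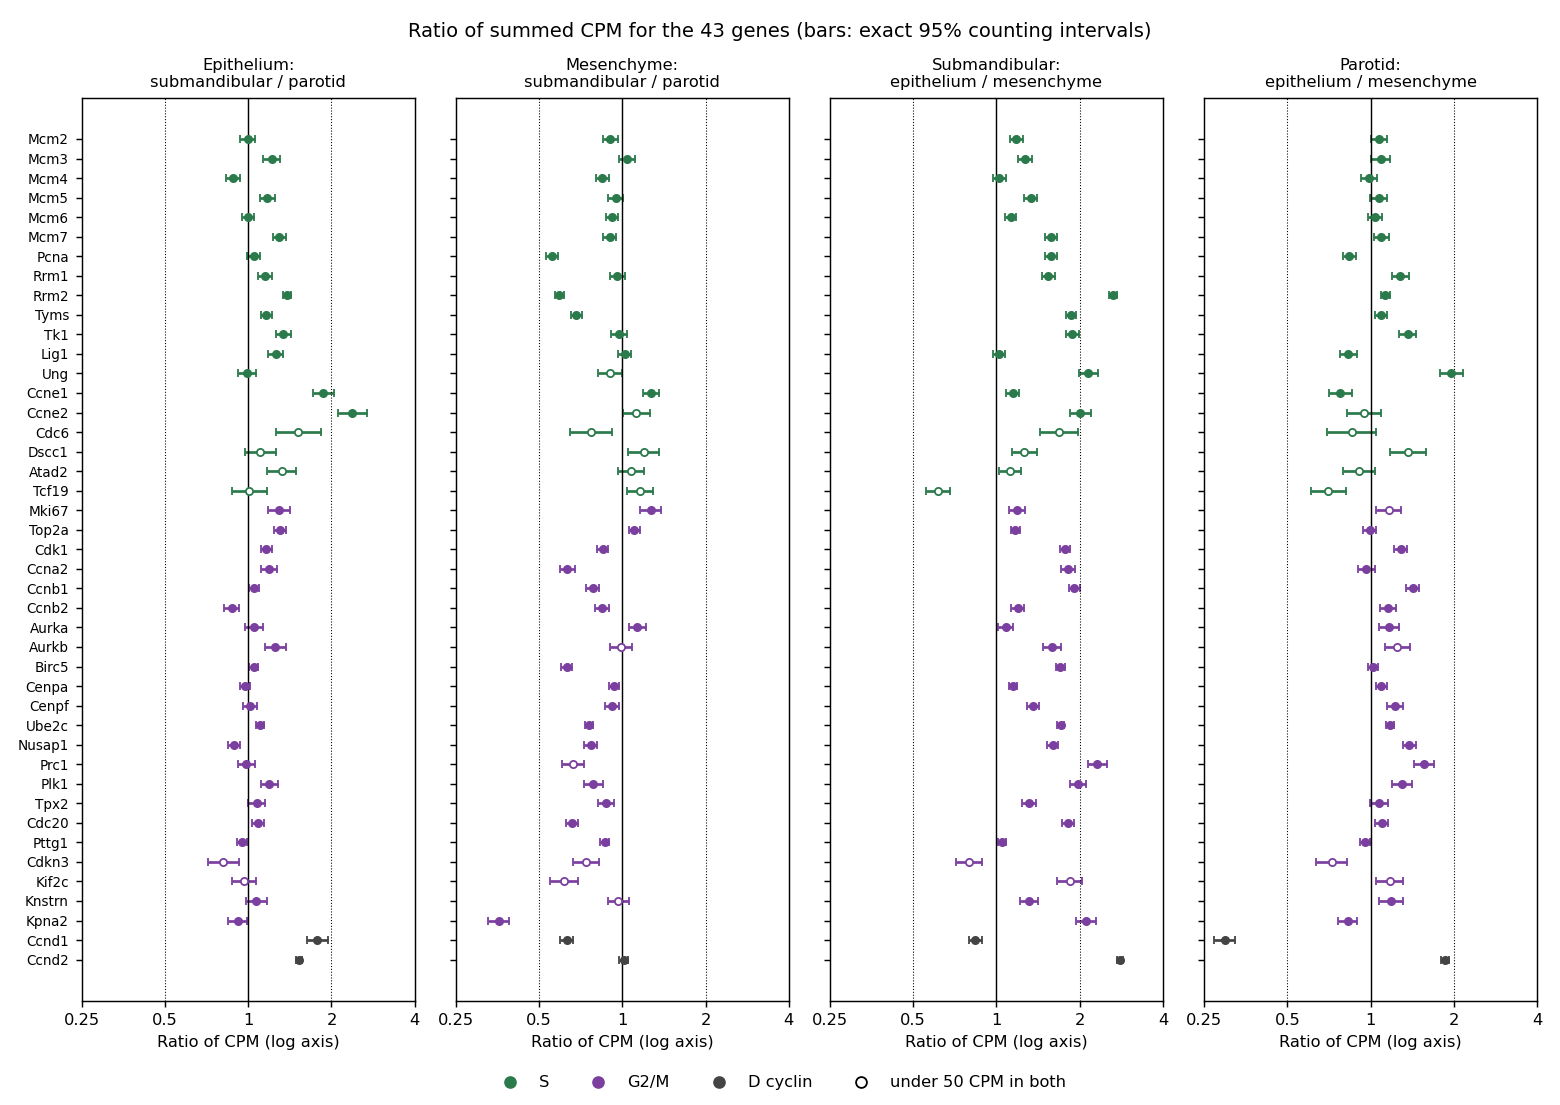
Ratio of CPM (log x axis) for each of the 43 members (y axis) in the 4 comparisons, 1 panel each; points are ratios, open where both libraries are under 50 CPM, and horizontal bars are exact 95% counting intervals. Kpna2 (0.36) is the lowest point of the mesenchyme comparison, and the points of epithelium over mesenchyme in the submandibular gland lie above 1 except Tcf19, Cdkn3 and Ccnd1.

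Between the tissues of the submandibular gland, nearly the whole list was higher in epithelium. Rrm2 was 444 CPM in epithelium and 168 CPM in mesenchyme (2.64, 2.55 to 2.73), Ung 71.0 against 33.1 (2.15), Ccne2 54.1 against 26.9 (2.01), Tk1 142 against 75.8 (1.88) and Tyms 234 against 126 CPM (1.86). Prc1, which bundles microtubules in the spindle midzone, was 75.9 against 32.8 CPM (2.31, 2.14 to 2.50), Kpna2 63.9 against 30.3 (2.11), the mitotic kinase Plk1 92.8 against 47.1 (1.97), Ccnb1 201 against 105 (1.91) and Ube2c 430 against 252 CPM (1.71). Pttg1 was close to level, at 235 and 224 CPM. Tcf19 and Cdkn3 were lower in epithelium, and under the stricter barcode filter Aurka (0.97), Ccnb2 (0.96), Cenpa (0.91), Pttg1 (0.96) and Lig1 (0.97) were too.

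The D cyclins went apart in both glands. Ccnd2 was 731.9 CPM in submandibular epithelium against 261 CPM in its mesenchyme (2.80, 2.72 to 2.88), and 479.5 against 259 CPM in the parotid gland (1.85, 1.79 to 1.92). Ccnd1 was 45.7 CPM in parotid epithelium against 153.7 CPM in parotid mesenchyme (0.30, 0.27 to 0.32) and 81.2 against 96.8 CPM in the submandibular gland (0.84, 0.80 to 0.89). The submandibular Ccnd1 ratio was 1.03 under TMM scaling, an alternative scaling that trims extreme genes, so its direction is not settled.

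At 50 CPM, 37 of 43 members were measured in the submandibular comparison. Of these, 20 had an epithelial level 1.5-fold or more above the mesenchymal one beside 18.7% of 3458 genes tested, none was 1.5-fold lower beside 22.4%, and 6 passed a 2-fold difference beside 22.5%. The 6 were Ccnd2, Rrm2, Prc1, Ung, Kpna2 and Ccne2. The S genes summed to 2217 against 1450 CPM (1.53) and the G2/M genes to 3052 against 2072 CPM (1.47), with median log2 ratios of 0.41 and 0.67 over all members and 0.62 and 0.67 over those at 50 CPM, beside 0.03 over all genes tested. Because TMM scaling shifts all ratios of this comparison by 0.29 on the log2 scale, the sums become 1.87 and 1.80 under it. Under the stricter filter they are 1.51 and 1.25, with 17 G2/M genes higher and 5 lower.

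In the parotid gland the tissues lay closer. Ung was 71.9 CPM in epithelium and 36.7 CPM in mesenchyme (1.96, 1.78 to 2.15), Tk1 106 against 78.0 (1.36), Dscc1 24.4 against 17.9, Tcf19 19.2 against 27.2 (0.70), Rrm2 321 against 284 (1.13) and Tyms 201 against 185 CPM (1.09). Prc1 was 77.2 against 49.4 CPM (1.56, 1.43 to 1.70), Ccnb1 192 against 135.0 (1.42), Nusap1, a spindle protein, 173 against 125 (1.38), Ube2c 389 against 332 (1.17), Pttg1 248 against 259.7 (0.95) and Cdkn3 24.6 against 34.0 CPM (0.72). The S sum was 1836 against 1732 CPM (1.06) and the G2/M sum 2892 against 2560 CPM (1.13). Of 34 members at 50 CPM, 3 were at least 1.5-fold higher in epithelium beside 12.6% of 3279 genes tested, 1 (Ccnd1) was 1.5-fold lower beside 16.2%, and the same gene alone passed a 2-fold difference beside 15.8%. The median log2 ratio was 0.10 over all S and 0.22 over all G2/M genes, and 0.11 and 0.22 over those at 50 CPM, beside -0.01 over all genes tested.

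Within the epithelia the phase shares ranged widely over clusters. The share of a class is a mean over its clusters, so a range around it is given in advance. The clusters were made without 149 cell cycle genes, although other cell cycle genes still led some of them, such as Pbk. In submandibular epithelium the G2/M share of 7 clusters ran from 5.12% of 547 cells to 62.1% of 663 cells. The lowest cluster was led by Krt15, Wnt6 and Igfbp5, with Krt5 among its leading genes, and the highest by Ngfr and Col9a1. Another submandibular cluster led by Ngfr, with Col9a1 among its leading genes, had 24.1% of 698 cells. In parotid epithelium 9 clusters ran from 9.80% of 245 cells (Anxa8, Cxcl14, Wnt7b) to 71.6% of 141 cells (Igfbp3, Lmcd1). A second parotid cluster led by Igfbp3 and Ngfr had 13.1% of 237 cells, so cells of alike leading genes were found at both ends.

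The mesenchyme was divided more sharply. In submandibular mesenchyme 10 clusters ran from 0.159 to 92.9% G2/M and in parotid mesenchyme 10 ran from 0 to 83.2%, the top cluster of each led by cell cycle genes outside the list such as Fam64a, Pbk and Mxd3. A parotid cluster led by Pax9 with Msx1 had 48.0% of 515 cells. A parotid cluster led by Meox2 and Pcp4l1 had 0 of 250 cells, which allows a share of up to 1.46%.

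**Figure D4:**
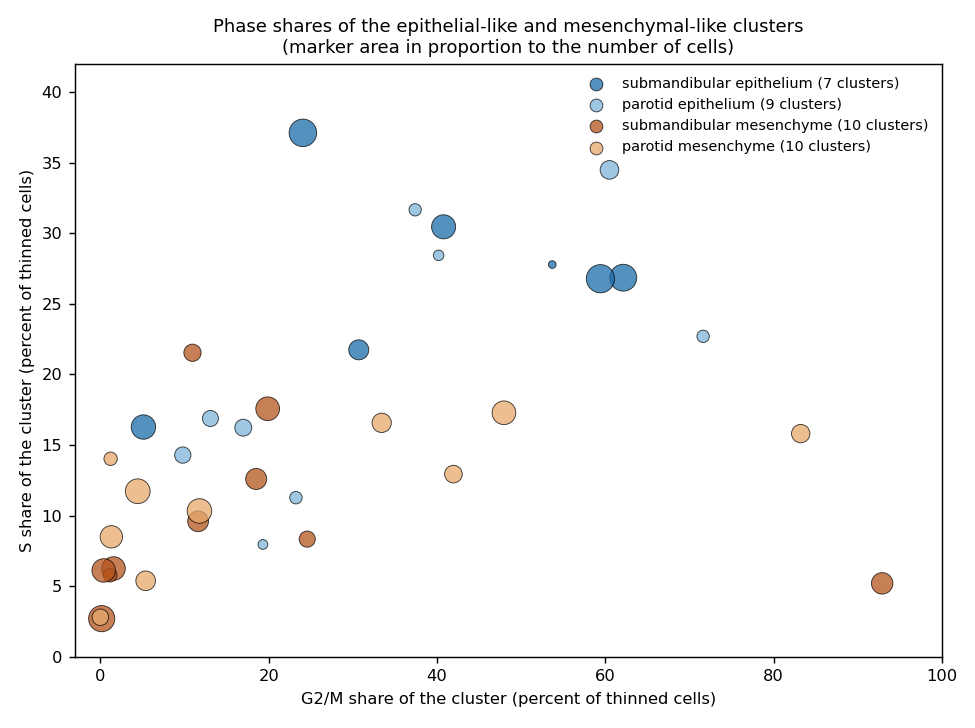
Share of cells called G2/M (x axis) against the share called S (y axis), both in percent of the cluster's thinned cells, for each cluster of epithelial-like and mesenchymal-like cells; marker area is in proportion to the number of cells and colours are the 4 libraries. Submandibular epithelial clusters span 5.12 to 62.1% G2/M and mesenchymal clusters span 0.159 to 92.9% and 0 to 83.2%.

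Cells were also divided by whether they held a UMI of a marker gene, chosen after the data were seen. In submandibular epithelium 22.6% of cells with Krt5, a basal keratin, were called G2/M against 40.6% without, and 30.6% with Krt19 against 40.0% without. Cells with Isl1 stood at 49.2 against 38.4%, and cells with Etv4, a target of FGF signalling found at bud tips, at 44.0 against 37.5%. The 902 cells with Sox9 were close to those without, at 38.6 against 39.2%. In parotid epithelium Etv4 stood at 39.7 against 31.1% and Sox9 at 33.9 against 31.6%. Lhx2 stood at 45.5% of 77 cells (34.06 to 57.21%) against 31.4%. The G2/M shares with Krt5 (30.2 against 34.2%) and Krt19 (30.8 against 32.3%) differed little there. The S share was 14.53% of 351 parotid cells with Krt19 against 22.98% of 1327 without, with intervals that do not overlap. For parotid Krt5 the S shares were close, at 21.02 against 21.46%. In parotid mesenchyme cells with Aldh1a2, which makes retinoic acid, had a G2/M share of 11.8% against 23.7% without. In submandibular mesenchyme, with 1531 such cells, the G2/M share was 18.4 against 17.2%. Parotid cells with Msx1 stood at 31.8 against 20.9%.

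Sox10 marks the distal, acinar-fated part of the gland epithelium. In submandibular epithelium 41.3% of 303 cells with a Sox10 UMI after thinning were called G2/M against 38.8% of 3291 without, a difference of 2.45 points (-3.20 to 8.31), and 29.04 against 27.07% were called S. In parotid epithelium the G2/M share was 24.7% of 89 cells with Sox10 against 32.4% of 1589 without, a difference of -7.69 points (-15.8 to 2.45). Both intervals include 0, so the shares showed no clear difference at this depth. In the same draw the summed G2/M level with Sox10 was 0.87 times that without in parotid epithelium (0.80 to 0.94). It was level in submandibular epithelium (1.00, 0.96 to 1.04). The parotid share difference depended on the random draw of the thinning: a second draw gave 30.6 against 31.6%, a difference of -0.9874 points. Thinning to 2000 UMIs gave 1.51 points. In both glands the direction of the share difference depended on the setting. Among cells with at most 5% mitochondrial UMIs the submandibular difference was -4.169 points. Counting Sox10 before thinning gave 45.5% of 903 (42.2 to 48.8%) against 36.8% of 2691 cells (35.0 to 38.7%) in submandibular epithelium. Those intervals do not overlap, but the cells also differed in depth, with medians of 13457 and 8537 UMIs. In parotid epithelium it gave 36.1% of 191 (29.3 to 43.4%) against 31.5% of 1487 (29.1 to 33.9%). In the submandibular gland cells with Sox10 after thinning were also deeper, with a median of 12407 UMIs against 9558.

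In submandibular epithelium some members differed in level with Sox10 in the same draw. Ccnd1 was 117.7 CPM in cells with Sox10 against 62.8 CPM without (1.87, 1.51 to 2.30), Ccne1 stood 1.54 times as high (1.25 to 1.88) and Kpna2 1.33 times, while Ccnb1 stood at 0.82 and Ccnb2 at 0.67 times. The other 38 members had intervals that include 1, and no share over all genes is given beside this count. In parotid epithelium these same genes had intervals that include 1. Ccnd1 stood there at 1.09 (0.59 to 1.87), Ccne1 at 1.35 (0.76 to 2.24), Kpna2 at 0.93, Ccnb1 at 1.01 and Ccnb2 at 0.75 times. Among the S and G2/M genes there, 1 had an interval above 1, Mcm3 (1.60, 1.07 to 2.32), and 7 had an interval below 1. These included Tk1 (0.42, 0.21 to 0.75), Birc5 (0.55, 0.37 to 0.78), Top2a (0.59, 0.35 to 0.93) and Nusap1 (0.62, 0.39 to 0.94). The others, Dscc1, Atad2 and Tcf19, rest on 0 to 2 UMIs in cells with Sox10. Ccnd2 stood at 0.80 times (0.65 to 0.97). No share over all genes is given beside these counts either.

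Skeletal muscle-like cells with fewer than 3 UMIs of 13 muscle differentiation genes (Myog, Mylpf, Myh3 and others), here called progenitors, had higher G2/M shares than mesenchymal-like cells. In the parotid library 58.7% of 126 progenitors were called G2/M (49.6 to 67.4%) and 26.2% S, and in the submandibular library 39.6% of 48 (25.8 to 54.7%) were G2/M and 29.2% S. This is 36.2 points (27.3 to 44.5) and 21.9 points (9.33 to 36.1) above the mesenchymal-like cells of the same library. The parotid value rests on the threshold, since 33.3% of those progenitors had 6 to 9 G2/M UMIs, and at a threshold of 0.4% its excess over the mesenchyme was 16.77 points. At 0.15% the excess was 55.14 points in the parotid and 40.45 points in the submandibular library.

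E cyclins were among the members with the largest ratios. In the parotid library Ccne1 was 163 CPM in progenitors against 60.4 CPM in mesenchymal-like cells (2.70, 2.39 to 3.04), Ccne2 52.9 against 24.0 (2.21), Cdc6 27.2 against 12.3 (2.20), Rrm2 524 against 284 (1.84) and Pcna 264 against 171 CPM (1.55). Ccnb1 was 279 against 135.0 CPM (2.07, 1.89 to 2.26), Cdk1 279 against 149 (1.88), Kpna2 153 against 84.6 (1.81), Birc5 391 against 234 (1.67), Ube2c 538 against 332 (1.62) and Cdkn3 16.7 against 34.0 CPM (0.49). In the submandibular library Ccne2 stood 3.24 times as high (2.44 to 4.23), Ung 2.81, Ccne1 2.77, Rrm2 2.69, Ccna2 2.51, Kpna2 2.20 and Birc5 2.13 times. D cyclins did not follow: Ccnd2 was 112 against 259 CPM in the parotid library (0.43, 0.38 to 0.50) and 185 against 261 CPM in the submandibular library (0.71, 0.59 to 0.84).

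Muscle-like cells with the most differentiation UMIs had the smallest G2/M shares. With 3 to 29 UMIs of the differentiation genes, a range chosen after the data were seen, 45.2% of 73 parotid (33.5 to 57.3%) and 34.8% of 66 submandibular cells (23.5 to 47.6%) were G2/M. Both intervals overlap those of the progenitors. With 30 or more, 0 of 32 parotid cells were G2/M or S, which allows up to 10.9% for each, and 6.67% of 15 submandibular cells (0.17 to 31.9%) were G2/M. Over all cells with 3 or more, the G2/M genes summed to 0.61 times the progenitor level in the parotid library (0.58 to 0.63). In the submandibular library they were nearly level, at 0.94 times (0.888 to 0.998). The limit of 3 UMIs is not a sharp one, since 135 of 231 parotid and 70 of 129 submandibular muscle-like cells had 1 to 5 such UMIs.

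Of 7 inhibitors of cyclin-dependent kinases, 2 were higher in differentiating cells with an interval above 1 in both libraries, Cdkn1a and Cdkn1c. Cdkn1a, which encodes p21, went from 0.05 through 0.23 to 5.83 per 10000 UMIs over the 3 parotid ranges and from 0.07 through 1.72 to 14.2 over the submandibular ones. Cdkn1c, which encodes p57, went from 6.16 through 17.3 to 76.2 and from 29.8 through 49.2 to 102.7. Ccnd1 went from 1.11 through 0.55 to no UMI in the parotid library and from 0.83 through 0.66 to no UMI in the submandibular library. Taking 3 UMIs as the limit where none was seen, these allow up to 0.31 and 0.67 per 10000. The submandibular Ccnd1 level before that last range is thus within what the depth could miss.

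**Figure D5:**
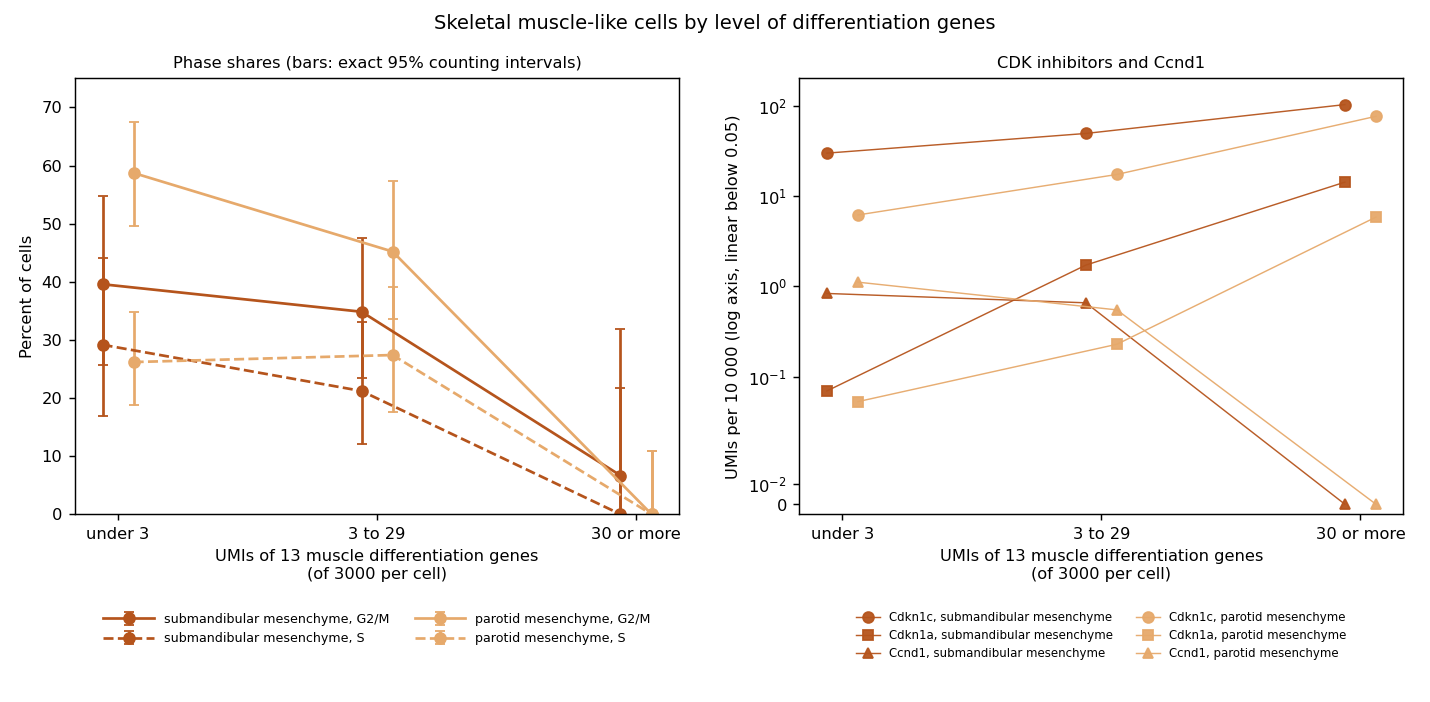
Skeletal muscle-like cells by UMIs of 13 differentiation genes (x axis: under 3, 3 to 29, 30 or more). Left, percent of cells called G2/M and S with exact 95% counting intervals; right, Cdkn1c, Cdkn1a and Ccnd1 as UMIs per 10000 on a log axis that is linear near 0. The G2/M share is 58.7 and 39.6% at the left and 0 and 6.67% at the right, where Cdkn1c and Cdkn1a are highest.

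Endothelial-like cells of the submandibular and parotid libraries had alike G2/M shares (32.5 and 32.7%). Their summed G2/M levels were also close, at 2510 and 2456 CPM. The mesenchymal-like cells they were compared with lay further apart, at 2072 and 2560 CPM. In the submandibular library 32.5% of 126 endothelial-like cells (24.5 to 41.5%) were G2/M, 14.9 points (7.25 to 23.6) above mesenchymal-like cells, and the G2/M genes summed to 2510 against 2072 CPM (1.21). Birc5 was 268 against 147.0 CPM (1.82, 1.63 to 2.03), Cdc20 165 against 93.6 (1.76), Cdk1 197 against 126 (1.56) and Aurkb 58.6 against 38.7 CPM (1.51). In the parotid library 32.7% of 55 cells (20.7 to 46.7%) were G2/M, but the difference of 10.2 points had an interval from -0.85 to 23.4 and the summed level went the other way (2456 against 2560 CPM, 0.96), so no order is read from it. At 5000 UMIs per cell that difference was -5.619 points, and among cells with at most 5% mitochondrial UMIs the submandibular one was 29.91 points. Hba-a1, a globin gene, stood at 6780 CPM in these parotid cells against 182 CPM in the submandibular endothelial-like cells and 210 CPM in parotid mesenchymal-like cells. Its part in the result was not tested.

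The S list did not follow in endothelial-like cells. It summed to 1244 against 1450 CPM in the submandibular library (0.86) and to 1399 against 1732 CPM in the parotid library (0.81). Ccne1 stood 0.44 times (0.32 to 0.60) and 0.48 times (0.29 to 0.77) as high as in mesenchymal-like cells, and Mcm4, a helicase subunit, 0.55 and 0.35 times. Ccnd2 was 134 against 261 CPM in the submandibular library (0.51) and 64.7 against 259 CPM in the parotid library (0.25). Ccnd1 was 169 against 96.8 CPM in the submandibular library (1.75, 1.51 to 2.01) and 153.7 CPM in both classes of the parotid library.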

How the data were processed

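The authors deposited raw counts per gene and cell barcode for 4 libraries. Per the submitters' processing notes these were made with Cell Ranger 2.1.1 on mm10; other settings are not given in the sources used here. A barcode was kept if it showed 500 genes or more and no more than 10% of its UMIs were mitochondrial (14884 of 15351). Each library was clustered with scanpy 1.11.5 under Python 3.11.15 (2000 variable genes, 149 cell cycle genes left out, 30 principal components, 15 neighbours, Leiden resolution 0.8 with igraph 0.11.9), which gave 54 clusters, of which 2 stayed unnamed because they had little mitochondrial RNA. Scrublet called 9 doublets in all, so it had not worked, and doublets were not removed. Cells were thinned to 3000 UMIs for shares, which left out as too shallow 13 epithelial-like cells of the submandibular and 78 of the parotid gland and 147 and 114 mesenchymal-like cells. Sums over all UMIs of a class gave CPM, with exact Poisson, conditional binomial and Clopper-Pearson intervals, which cover counting error only. Differences of shares have Newcombe intervals from the same cell counts. Genes of at least 50 CPM in the higher group entered counts past a 2-fold or 1.5-fold ratio. edgeR 4.0.16 under R 4.3.3 gave TMM factors only, and no test was run because each group has 1 library. The scripts were tested on simulated data.

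The 43 members and all gene lists were chosen with earlier results of these data known. In the 4 comparisons of glands and tissues, the 4 S and 4 G2/M genes with the largest log2 ratio were named. So were the 2 of each with the highest CPM and both D cyclins. In the Sox10, muscle and endothelial comparisons only part of that set was named. Other names were added after their values were seen. Alternatives were other thinning depths, thresholds, filters, scaling, seeds and gene lists. Unthinned shares, each filter alone, list sums under other settings, marker divisions and muscle ranges were added after seeing the data.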

Additional observations from a re-analysis of the deposited data

Results flagged for a closer look

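The glands differed in opposite directions in the 2 tissues. The G2/M share of submandibular minus parotid cells was 7.01 points in epithelium and -4.94 points in mesenchyme, and the S share 6.02 and -2.57 points. The difference between the tissues was not tested, since each group has 1 library, and the mesenchyme difference came to -0.5955 points with at most 5% mitochondrial UMIs.

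Cells with a Sox10 UMI also differed in sign between the glands: their G2/M share less that of cells without was 2.45 points in submandibular and -7.69 points in parotid epithelium. This difference was not tested, and both intervals include 0. A second draw of the thinning gave -0.9874 points in parotid epithelium and thinning to 2000 UMIs gave 1.51, so the sign there is not settled.

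A cluster of submandibular epithelium that was left out of the comparisons, because its barcodes held little mitochondrial RNA and could not be named, had a G2/M share of 71.6% of 116 cells (62.4 to 79.5%). The like cluster of parotid epithelium had 42.9% of 21 cells (21.8 to 66.0%), since 70 of its 91 cells were too shallow to thin.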

How the results depend on the processing

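Of 156 recomputed values, 118 lay within the counting interval of the value given (counts of members within 1.5 times) and 38 outside. The Sox10 differences of both glands and that of parotid endothelial-like cells turned sign in some settings. The interval of parotid Sox10 is wide: a second draw gave -0.9874, 2000 UMIs 1.51 and 5000 UMIs -1.081, and parotid endothelial-like cells gave 2.64 at 0.4%. With thinning to 2000 UMIs the G2/M share difference was 10.16 points between the epithelia and 23.63 between the submandibular tissues. At 5000 UMIs it was 17.17 between the submandibular and 5.724 between the parotid tissues, and -5.619 for parotid endothelial-like cells. A threshold of 0.15% gave 13.29 (epithelia), 32.6 and 13.96 (submandibular and parotid tissues), 55.14 and 40.45 (parotid and submandibular muscle progenitors). A threshold of 0.4% gave 3.378 (epithelia), -3.012 (mesenchyme), 12.39 and 6.001 (submandibular and parotid tissues) and 16.77 (parotid muscle progenitors). Calls from 39 other mitotic genes gave 27.28 between the submandibular tissues and 26.34 for parotid muscle progenitors.

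The stricter filter and the 5% mitochondrial limit alone gave the same values, -0.5955 (mesenchyme), 14.23 (parotid tissues), -4.169 (Sox10, submandibular) and 29.91 (submandibular endothelial-like cells). Sox10 counted before thinning gave 8.688 and 4.653 points, and unthinned shares gave 5.256 for parotid Sox10. The cause was not tested in any of these.

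Members past 2-fold numbered 1, 1, 6 and 1 in epithelia, mesenchyme, submandibular tissues and parotid tissues, and at 1.5-fold 4, 7, 20 and 4. In the submandibular tissues TMM gave 15, thinned cells 12 and the stricter filter 3, and in the parotid tissues each of these gave 2. TMM shifted log2 ratios by 0.09, -0.12, 0.29 and 0.04 in the same order. No paired analysis was possible because each group has 1 library, and no replicate could be left out. Muscle, endothelial and Sox10 shares rest on few cells.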

Other observations

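Outside the 43 genes, the kinase inhibitor gene Cdkn1c (p57) stood far apart between the mesenchymes. It was 10648.5 CPM in submandibular and 1676 CPM in parotid mesenchyme, a ratio of 6.35 (6.29 to 6.42), against 435 and 545 CPM in submandibular and parotid epithelium. Its level was not confined to cells called neither: in submandibular mesenchyme it was 128 per 10000 UMIs in G2/M cells, 86.1 in S cells and 103 in neither cells, and in parotid mesenchyme 12.3, 12.1 and 20.3.

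Among smaller classes of the submandibular mesenchyme library, neural crest and glial-like cells had 32.4% of 142 cells in G2/M and chondrogenic-like cells 26.4% of 53. Their Ccnd1 levels were 482 and 231 CPM, against 96.8 CPM in the mesenchymal-like cells, and Ccnd2 was 393 CPM in the neural crest and glial-like cells.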
